A study of Mus musculus with 8 samples.

Results

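miR-378 and miR-378* (mmu-miR-378 and mmu-miR-378* on the array) are the 2 arms of one microRNA hairpin, that is, the 2 short RNAs cut from the opposite sides of its stem, now called miR-378a-3p and miR-378a-5p. They are 2 of the 567 mouse miRNAs on the array and were both detected on all 8 arrays. They were chosen by name, with their values in the comparison of CpG with untreated cells already known, so their levels, their difference and their arm ratio are given here as a description without a test. The samples were dendritic cells of C57BL/6 mice, a standard inbred strain, grown from bone marrow with the growth factor GM-CSF at 40 ng/ml and collected as non-adherent cells on day 9. In 4 samples the cells had been exposed overnight to 10 µM of the class B CpG oligonucleotide ODN1826, a short DNA sensed by Toll-like receptor TLR9, and 4 samples were left without it, in medium alone by one label and with PBS by another. Their total RNA, marked with the dye Cy3, was hybridised in 1 colour, all on the 8 arrays of 1 slide. The labels number the replicates and name no separate animal or culture for them, so every spread given here may be partly technical. No sample received a control oligonucleotide, and in such cultures fewer cells of a type and less RNA per cell cannot be told apart.

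The hairpin lies within Ppargc1b, the gene of PGC-1beta, a coactivator that switches on genes of mitochondrial respiration and fatty acid oxidation. An intronic miRNA is made from the transcript of its host gene, so that both products can appear together. One arm of a hairpin is usually kept in the silencing complex as the guide, while the other, marked with a star in the older names, is mostly degraded. In mice, both arms of this hairpin are known as regulators of fatty acid metabolism and energy balance, and miR-378 is known to be raised by interleukin-4 in macrophages. Activated dendritic cells are known to shift their energy metabolism towards glycolysis.

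In the array's annotation (mm9), the targets of the 2 miR-378 probes lie on chromosome 18 at 61557492 to 61557504 and 61557492 to 61557505. Those of the 2 miR-378* probes lie at 61557529 to 61557545 and 61557529 to 61557546, on the other side of the hairpin. In the RefSeq gene table of another build, which was used for names only, the span of Mir378a lies inside the span of Ppargc1b. That table lists 3 further loci of the family, Mir378b, Mir378c and Mir378d. None of their products (0 of 3) has a probe on this array, and their contribution to the signal was not tested. Ppargc1b mRNA was not measured here.

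Before any scaling, the whole miRNA signal was brighter on the CpG arrays. The 75th percentile of signal over the 177 miRNAs detected on all 8 arrays was 157, 252, 180 and 280.5 intensity units on CpG replicates 1 to 4, against 101, 124, 144 and 120.3 on untreated replicates 1 to 4, and these groups do not overlap. Each signal was divided by this percentile of its own array and put on a log2 scale, where 0 is the percentile itself. Scaled log2 values correlated across miRNAs, which are not independent replicates, with r of 0.968 to 0.995 among CpG arrays, 0.975 to 0.994 among untreated arrays and 0.947 to 0.985 between the groups.

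miR-378, the arm known as the guide, was lower relative to the other miRNAs in CpG-treated cells. Its scaled log2 signal was -1.11, -1.64, -1.41 and -0.98 on CpG replicates 1 to 4, against -0.53, -0.40, -0.99 and -0.15 on untreated replicates 1 to 4. The groups overlap only in that CpG replicate 4 lies just above untreated replicate 3, and all other CpG arrays lie below all untreated arrays. The means were -1.29 ± 0.30 with CpG and -0.52 ± 0.35 in untreated cells (SD, n = 4 each), a log2 difference of -0.77, or 0.587 times the untreated level. The size of this difference exceeds either SD.

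In unscaled intensities the same arm differed by far less than the spread between arrays. miR-378 had 72.7, 80.8, 67.6 and 142 intensity units on CpG replicates 1 to 4, against 69.9, 94.4, 72.5 and 108 on untreated replicates 1 to 4. The miR-378 signal was highest on replicate 4 in both groups, and its untreated range lies inside its CpG range. The means were 90.8 ± 34.6 with CpG and 86.2 ± 18.3 in untreated cells (SD, n = 4 each), and the log2 difference was 0.03. The deposited total gene signal, a sum that the scanner software makes per miRNA, gave the same picture, at 95.1 to 194 on CpG arrays and 99.1 to 149 on untreated arrays. The 2 scales thus gave different signs for miR-378. Its distance from the other miRNAs is nearly fixed between the scales, because dividing each array by 1 factor shifts almost all log2 differences alike. The median log2 difference of all 212 tested miRNAs was -0.19 scaled and 0.60 unscaled, and miR-378 lay at -0.57 relative to that median on both scales.

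**Figure D1:**
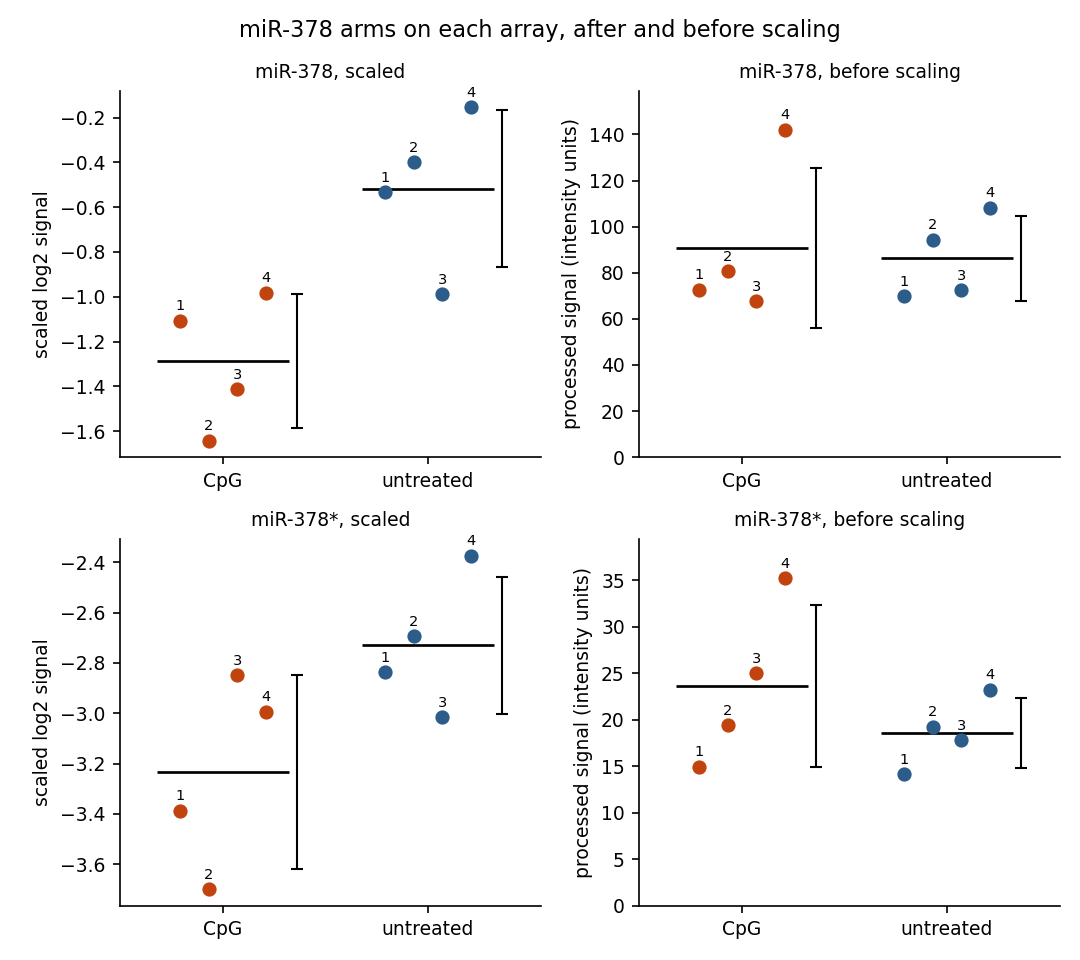
Level of miR-378 (top) and miR-378* (bottom) on each array, as scaled log2 signal (left) and as processed signal in intensity units before scaling (right), with CpG arrays left of untreated arrays. Points are arrays labelled with their replicate number, lines are group means and bars are 1 SD (n = 4 each). Both arms have the lower CpG mean after scaling, at -1.29 against -0.52 and at -3.23 against -2.73, and neither does before it.

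miR-378*, the passenger arm, also had a lower mean in CpG-treated cells on the scaled values, with more overlap between the groups. Its scaled log2 signal was -3.39, -3.70, -2.85 and -2.99 on CpG replicates 1 to 4, against -2.84, -2.69, -3.02 and -2.37 on untreated replicates 1 to 4. CpG replicates 1 and 2 lie below every untreated array, while CpG replicates 3 and 4 lie within the untreated range. The means were -3.23 ± 0.39 with CpG and -2.73 ± 0.27 in untreated cells (SD, n = 4 each), a log2 difference of -0.50, or 0.706 times the untreated level.

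Unscaled, miR-378* leaned the other way. Its signal was 15.0, 19.4, 25.0 and 35.2 intensity units on CpG replicates 1 to 4, against 14.1, 19.2, 17.8 and 23.2 on untreated replicates 1 to 4. CpG replicates 3 and 4 are above every untreated array, and the others lie within the untreated range. The means were 23.6 ± 8.73 with CpG and 18.6 ± 3.75 in untreated cells (SD, n = 4 each), a log2 difference of 0.30. Relative to the median of all tested miRNAs, miR-378* lay at -0.31 scaled and -0.30 unscaled.

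Ranks within an array need no scaling. Among the 177 miRNAs detected on all arrays, with 1 as the brightest, miR-378 ranked 69, 82, 81 and 70 on CpG replicates 1 to 4, against 53, 48, 69 and 47 on untreated replicates 1 to 4. The groups touch at rank 69 and otherwise do not overlap. miR-378* ranked 132, 137, 122 and 121 on CpG replicates 1 to 4, against 124, 110, 127 and 101 on untreated replicates 1 to 4, and its groups overlap. Since probes bind with different strength, only the change in rank is read.

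The arms were also set against each other within each array, where a single scaling factor per array cancels. The ratio of miR-378 to miR-378* signal was 4.86, 4.16, 2.71 and 4.04 on CpG replicates 1 to 4, against 4.94, 4.91, 4.08 and 4.66 on untreated replicates 1 to 4. CpG replicate 3 is the lowest and the other CpG arrays lie within the untreated range or just under it. The level of this ratio mixes the binding of different probes, so only its difference between groups is read. Its log2 was 1.95 ± 0.36 with CpG and 2.21 ± 0.13 in untreated cells (SD, n = 4 each), a difference of -0.27, which is smaller than the SD of the CpG group. Without CpG replicate 3 the difference was -0.09. Within row 1 of the slide, which holds replicates 1 and 4 of both groups, it was -0.11, and within row 2, which holds replicates 2 and 3, it was -0.42.

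**Figure D2:**
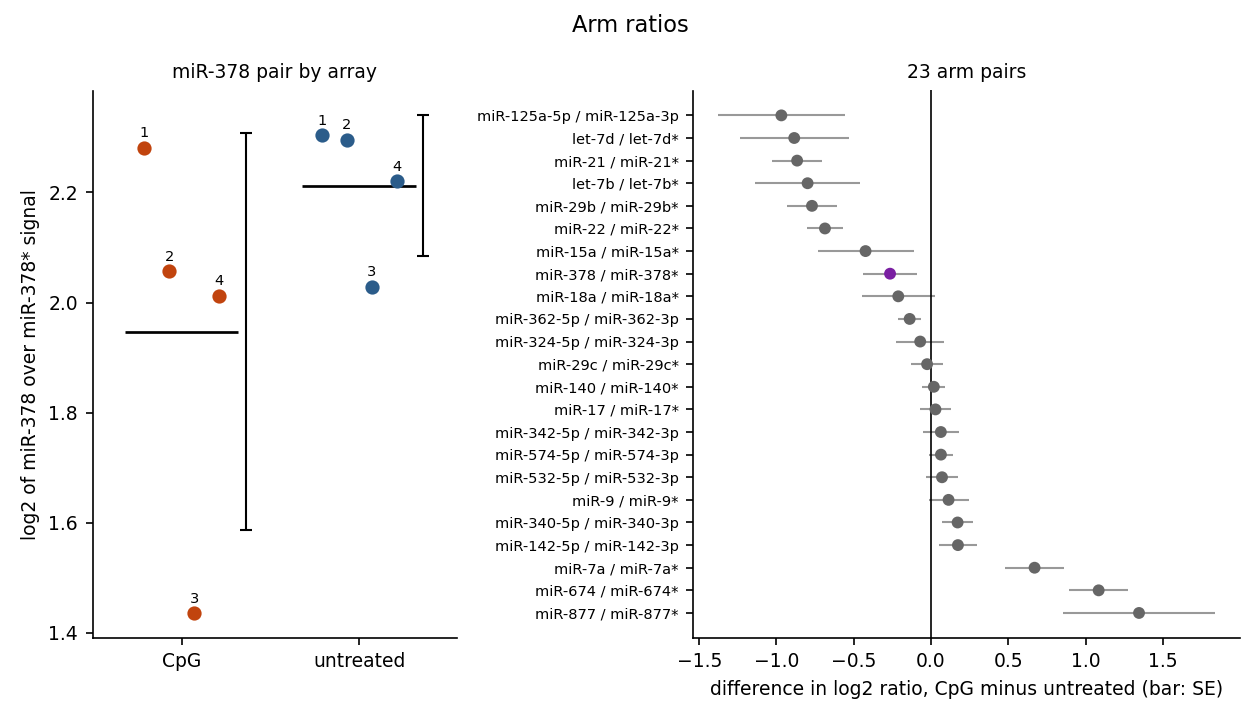
Left, log2 ratio of miR-378 to miR-378* signal on each array, with CpG left of untreated, where points are arrays labelled with their replicate number, lines are means and bars are 1 SD (n = 4 each). Right, CpG minus untreated difference in log2 arm ratio for the 23 pairs with both arms detected on all arrays, with bars of 1 SE, where the miR-378 pair in purple lies at -0.27.

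Of the 23 hairpins with both arms detected on all arrays, 5 had an arm ratio that passed limma's test at an adjusted p under 0.05 (21.7%), 2 higher and 3 lower with CpG. The ratio of the miR-378 pair, described without a test, had the 8th lowest difference of the 23, in a range of -0.97 to 1.35 with a median of -0.03. Ratios that passed were those of miR-21, a miRNA abundant in myeloid cells, to miR-21* (log2 difference -0.87, SE 0.16, limma adjusted p = 0.00482), miR-29b to miR-29b* (-0.77, SE 0.16, limma adjusted p = 0.00748) and miR-22 to miR-22* (-0.69, SE 0.12, limma adjusted p = 0.00482), all lower with CpG. The ratios of miR-674 to miR-674* (1.08, SE 0.19, limma adjusted p = 0.00482) and miR-7a to miR-7a* (0.67, SE 0.19, limma adjusted p = 0.037) were higher.

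Each arm is read by 2 probes of different length that share a target. The miR-378 probes with targets of 13 and 14 bases gave log2 differences of -0.75 and -0.78. With the shorter one the groups did not overlap, at -1.95 to -1.39 on CpG arrays and -1.36 to -0.51 on untreated arrays, while with the longer one they did. The gap was small beside the SDs of the shorter probe, 0.25 with CpG and 0.35 in untreated cells. Among all 212 tested miRNAs, the groups of 57 did not overlap (26.9%). The miR-378* probes, with targets of 17 and 18 bases, gave -0.46 and -0.53. The 4 arm ratios that can be formed from these probes differed by -0.32 to -0.22.

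Spots of miR-378 were bright enough to be read everywhere. All 160 of its spots, 20 on each array, were well above background, none (0) was saturated and 7 carried an outlier flag and were left out. The coefficient of variation among spots of a probe was 2.66% to 9.39% for one probe and 2.34% to 9.33% for the other. For miR-378*, 152 of 160 spots were well above background and 5 were flagged. The 8 dim spots all belonged to 1 of its probes, whose spots varied by 10.4% to 27.2%, against 6.85% to 13.9% for the other. miR-378* is thus the less precisely measured arm.

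Among all 212 miRNAs tested, 30 passed limma's test at an adjusted p under 0.05 (14.2%), and 14 of them were lower with CpG (6.60%). The scaled difference of miR-378 was the 7th lowest of the 212 and that of miR-378* the 23rd lowest. These places are a description, because the arms were chosen with this comparison known. For 57 miRNAs the CpG and untreated arrays did not overlap (26.9%), and neither arm was one of them. On the scaled values 137 of the 212 miRNAs had a difference below 0, whereas unscaled only 6 did.

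**Figure D3:**
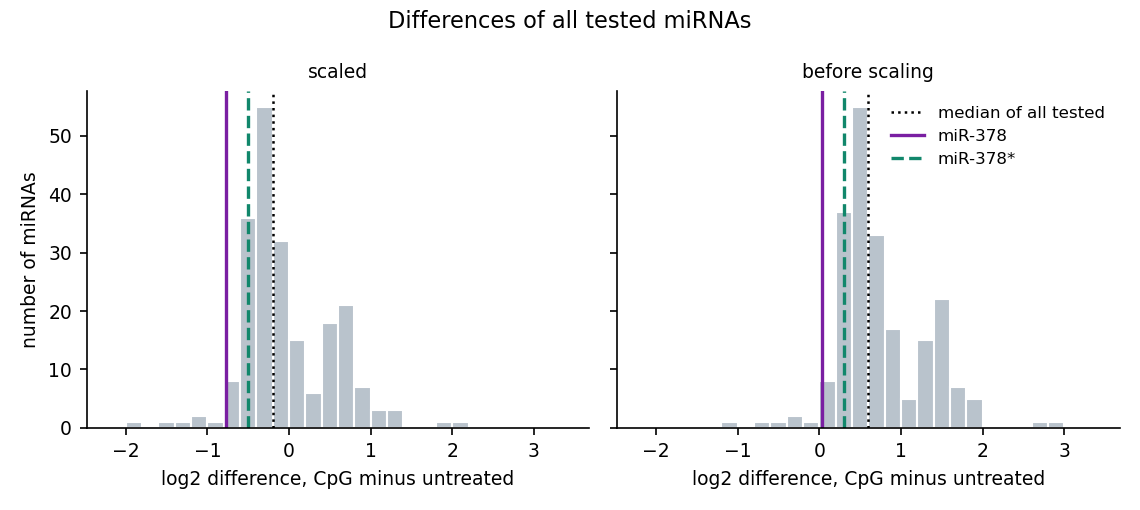
Number of miRNAs by log2 difference, CpG minus untreated, over the 212 tested miRNAs after scaling (left) and before it (right). The solid line marks miR-378, the dashed line miR-378* and the dotted line the median, and both arms lie left of the median in both panels, at -0.77 and -0.50 against -0.19 scaled and at 0.03 and 0.30 against 0.60 unscaled.

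The difference of miR-378 was similar in both rows of the slide, at -0.70 in row 1 and -0.83 in row 2, as was that of miR-378*, at -0.59 and -0.42. Leaving out 1 array at a time gave -0.92 to -0.65 for miR-378 and -0.63 to -0.35 for miR-378*. A scaling on 4 control features of the array (named hur), chosen after seeing the data, gave -0.22 for miR-378 and 0.046 for miR-378*. The difference of miR-378 was below 0 under every scaling tried and above 0 only in unscaled values, that of miR-378* was above 0 also with control features, and leaving out single arrays turned neither.

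**Figure D4:**
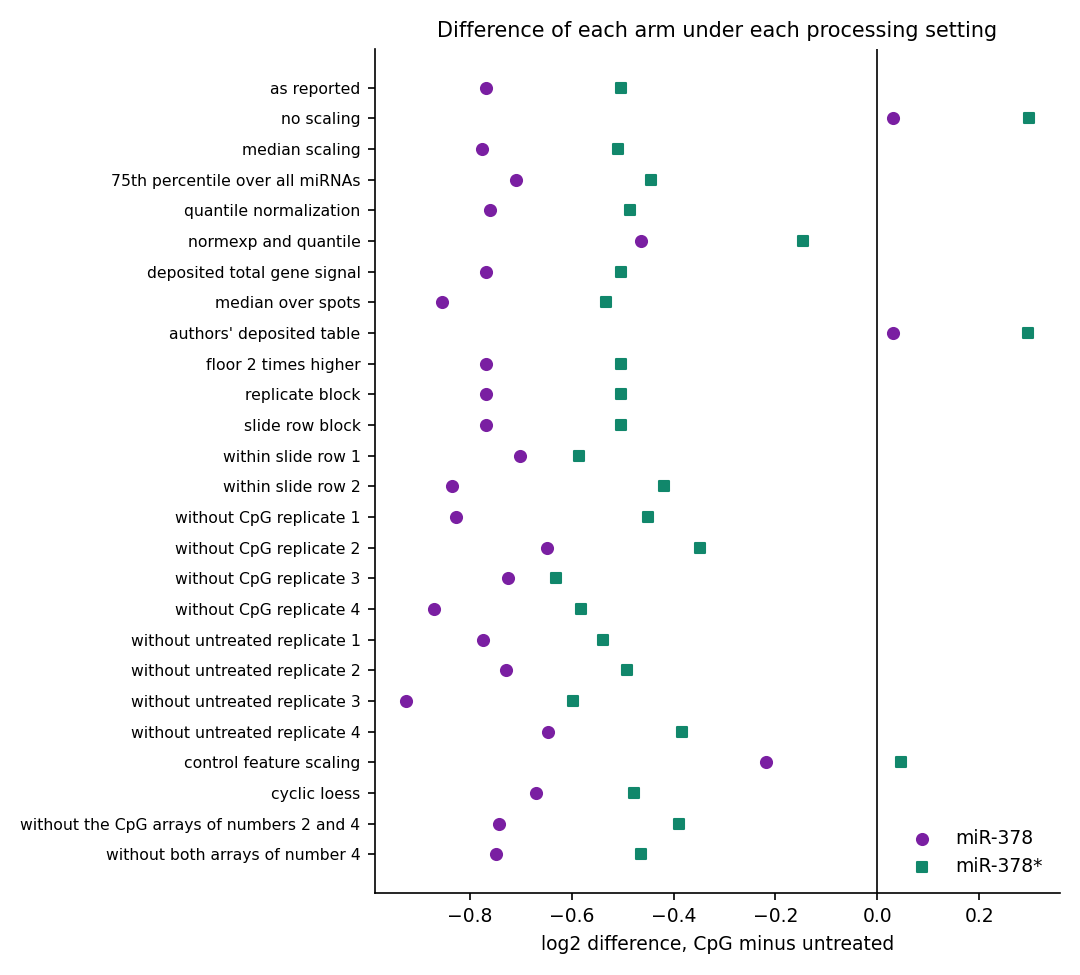
Log2 difference, CpG minus untreated, of miR-378 (circles) and miR-378* (squares) under each processing setting named on the vertical axis, with a line at 0. miR-378 lies at or above -0.22 only with no scaling, the authors' unscaled table or control feature scaling, and between -0.92 and -0.46 otherwise.

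A partial list of other miRNAs known to lie in introns of protein-coding genes was examined as a group, without the miR-378 arms. Of the 41 listed miRNAs 29 could be tested, and 0 rose and 4 fell, against 6.60% lower and 14.2% called in either direction over all tested miRNAs. Their median log2 difference was -0.33, against -0.19 over all 212 tested miRNAs, and 28 of the 29 lay below 0, against 137 of all 212. This direction is not particular to the list. Outside it, let-7a was at -0.47, miR-17 at -0.35 and miR-24 at -0.35. The 75 of 212 above 0 include intronic miRNAs that the list left out. Among these were miR-877, from an intron of Abcf1, at 2.02 and miR-669a, of the repeat cluster in Sfmbt2, at 0.70. The counts of the list therefore depend on which intronic miRNAs were listed. Whether an intronic position matters was not tested. miR-139-5p, hosted by the phosphodiesterase gene Pde2a, fell by 1.01 (SE 0.17, limma adjusted p = 0.00768), at -4.11 ± 0.18 with CpG and -3.09 ± 0.25 in untreated cells (SD, n = 4 each). miR-30c, of which 1 copy lies in the transcription factor gene Nfyc, fell by 0.81 (SE 0.15, limma adjusted p = 0.0127). miR-26a, hosted by phosphatase genes of the Ctdsp family, fell by 0.60 (SE 0.16, limma adjusted p = 0.0375). miR-16, of which 1 copy lies in the condensin gene Smc4, fell by 0.49 (SE 0.13, limma adjusted p = 0.0375). The brightest members that did not pass were miR-15b at -0.46, miR-342-3p at -0.42 and miR-103 at -0.41 (limma adjusted p = 0.110, 0.0768 and 0.078). Unscaled, the median of the list was 0.47 against 0.60 over all tested miRNAs, with 4 members higher and 0 lower, against 88 of all 212 higher (41.5%). There miR-139-5p was at -0.21, miR-30c at -0.011, miR-26a at 0.20 and miR-16 at 0.31, none past the threshold (limma adjusted p = 0.43, 0.97, 0.45 and 0.28). Under 28 alternatives miR-139-5p passed in 21, miR-30c in 18, and miR-26a and miR-16 in 8 each. The count of 4 was 8 without CpG replicate 1, 1 without CpG replicate 3 or untreated replicate 2, and 2 without CpG replicate 2 or untreated replicates 1 or 4.

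Of 24 miRNAs known for roles in lipid or mitochondrial metabolism, fat or muscle, 12 could be tested and 0 passed limma's adjusted threshold, while 7 had an unadjusted p under 0.05, against 85 of all 212 (40.1%). The median log2 difference was -0.33 and 10 of the 12 lay below 0, against -0.19 and 137 of 212 over all tested miRNAs. The brightest were miR-23a at -0.56, miR-27a, known to restrain fat cell formation, at -0.63, miR-103, hosted by pantothenate kinase genes, at -0.41 and miR-34a at -0.07 (limma adjusted p = 0.0566, 0.0764, 0.078 and 0.82). Unscaled, the median was 0.47 and all 12 lay above 0, against 0.60 and 206 of 212 over all tested miRNAs, and 4 passed as higher, against 41.5% of all, among them miR-34a at 0.73 (limma adjusted p = 0.0293). Without CpG replicate 1 the scaled count was 5, and without untreated replicate 3 it was 1.

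Markers of myeloid and dendritic cells and of other cell types were followed beside the arms. All 6 myeloid and dendritic markers were detected on every array, with a summed scaled level of 123 to 151 on CpG arrays and 129 to 158 on untreated arrays, and 2 of them passed as higher and 1 as lower, against 14.2% called over all tested miRNAs. The 2 higher were miR-155 at 1.92 and miR-146a at 0.92. The other 4 lay below 0, with miR-223 the lowest at -0.60. Muscle miRNAs, from a tissue in which miR-378 is known to be abundant, were near 0, since 1 of 7 was detected (miR-206, on 3 CpG and 0 untreated arrays), with sums of 0.0139 to 0.0452 on CpG arrays and 0.00707 to 0.039 on untreated arrays. The liver marker miR-122 and the 3 erythroid markers were detected on 0 arrays, as were 4 of the 5 stromal markers on the array. Lymphoid markers, 3 of 4 detected, had sums of 5.24 to 7.43 on CpG arrays and 7.67 to 9.35 on untreated arrays, and epithelial ones, 3 of 7 detected, had sums of 0.108 to 0.123 on CpG arrays and 0.134 to 0.168 on untreated arrays. Their median log2 differences were -0.24 and -0.17, against -0.19 over all tested miRNAs. Within them, miR-342-3p at -0.42 and miR-200b at -0.59 had the lowest scaled differences, and unscaled all detected members of both lists lay above 0, at 0.21 to 0.74. The epithelial miR-200c and miR-141 were detected on 4 CpG arrays and 1 untreated array each. The part of the marker lists in the difference of miR-378 was not tested.

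Over the 8 arrays, the tested miRNAs whose scaled log2 values were most like those of miR-378 were miR-200b (Pearson r = 0.968), miR-92a (0.945), miR-30c (0.945), miR-30e (0.944) and miR-139-5p (0.931), against a median r of 0.495 over the other tested miRNAs. Their differences were -0.59, -0.49, -0.81, -0.41 and -1.01 in that order, so all were lower with CpG on this scale. For miR-378* they were miR-532-5p (0.92), miR-26b (0.918), miR-1224 (0.908), miR-107 (0.902) and miR-331-3p (0.897), against a median r of 0.331, with differences of -0.20, -0.35, -0.44, -0.33 and -0.32. The 2 arms correlated with each other at r = 0.825, which was the 46th highest for miR-378, and at 0.664 once group means were removed. The arrays share their scaling and their group, which can raise all these correlations. Choosing neighbours over arrays of both groups also favours miRNAs that differ in the same direction as the arm.

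Of these 10 neighbours, 2 have their exact name in the RefSeq miRNA table (GRCm38.p6), 1 for each arm, and are shown so that their seeds, bases 2 to 8 in capitals, can be compared. They lie at chr7:101475382-101475403 on the plus strand (miR-139-5p) and chr10:93963783-93963803 on the minus strand (miR-331-3p), and their seeds differ.
mmu-miR-139-5p: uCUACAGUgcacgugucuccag
mmu-miR-331-3p: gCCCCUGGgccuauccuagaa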

How the data were processed

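The deposited intensities are scanner values from Agilent Feature Extraction, version 9.5.3.1 per the file headers as well, with no step of the authors recorded there that scales arrays to each other. The processed signal gives the background-subtracted intensity of a spot, and the total gene signal sums these per miRNA, with a detection flag. The authors' deposited series table held the same total gene signals, unscaled, within 0.1% in all 16 values of the miR-378 arms. The submitters' processing notes list limma, with no version.

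Processed signals were averaged over spots without outlier flags and then over the probes of each miRNA. They were divided by the array's 75th percentile over the 177 miRNAs detected on all 8 arrays. Scaled values under 0.0107 were raised to that floor (log2 of -6.55) ahead of the log2 step. The 212 miRNAs detected on at least 3 of 4 arrays of a group were compared, CpG minus untreated, in R 4.3.3 with lmFit and eBayes of limma 3.58.1, two-sided, and Benjamini-Hochberg adjustment over all of them. Arm ratios of 23 pairs were adjusted over the pairs. The script was tested on simulated data. Python 3.11.15, pandas 2.3.3 and matplotlib 3.10.9 made tables and figures.

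The members and lists were chosen with earlier results of these data known. Named miRNAs were both arms, the 5 most correlated with each arm, list members past the threshold with up to 4 of highest signal, and up to 3 called arm pairs in each direction. Alternatives changed the scaling, background, probe summary, filter, floor or block, or left out arrays. Control feature scaling, cyclic loess, and leaving out CpG replicates 2 and 4 or both arrays numbered 4 were added after seeing the data. Precision is limited by there being 4 arrays a group. Sequences of the miR-378 arms are not shown here.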

Additional observations from a re-analysis of the deposited data

Results flagged for a closer look

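In 46 groups of 4 arrays checked for the named miRNAs and arm ratios, 1 held an array that stood apart from the others. miR-26a, an intronic miRNA, was at 0.47 on CpG replicate 2, against a mean of 0.90 on the other CpG arrays (scaled log2 signal). About 1 in 20 such groups is marked by chance. Neither miR-378 nor miR-378* was marked.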

How the results depend on the processing

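The difference of miR-378 kept its sign and moved by less than the spread between replicates in 22 of 25 alternatives. It was 0.031 without scaling, 0.029 in the authors' deposited table and -0.22 with control feature scaling. That of miR-378* did so in 21 of 25. It was 0.30 without scaling, 0.29 in the authors' deposited table, 0.046 with control feature scaling and -0.15 with normexp background and quantile normalization. Some of the 25 could not move either difference, namely the replicate block, the slide row block and the higher floor. The deposited total gene signal is made from the same spots and could hardly do so. These counts therefore overstate how far the differences were challenged. Leaving out 1 array gave -0.92 to -0.65 for miR-378 and -0.63 to -0.35 for miR-378*. The arm ratio cannot change with a single factor per array. It differed by -0.38 to -0.09 without 1 array and by -0.32 to -0.19 with quantile normalization, normexp, cyclic loess or the median over spots.

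The count of 30 called miRNAs was 88 when arrays were not scaled (88 higher, 0 lower), 87 (87 and 0) in the authors' deposited table, 69 with control features (67 and 2), 48 with a floor 2 times higher (14 and 34), 19 with quantile normalization (9 and 10), 18 with median scaling (11 and 7), 12 with normexp (7 and 5), 3 with no filter (2 and 1) and 2 with the median over spots (2 and 0). The split was 13 and 7 with cyclic loess, 16 and 7 with the percentile over all miRNAs, 12 and 18 among miRNAs detected everywhere, and 16 and 28 with a trended, robust fit. Within slide row 1, with fewer arrays, limma called 0, with 15 at an unadjusted p under 0.05, within row 2 it called 20 (15 and 5), and with the row as a block 28 (13 and 15). It called 4 without CpG replicates 2 and 4 (3 and 1), 12 without both arrays numbered 4 (8 and 4), and 5 to 68 without any 1 array (68 without CpG replicate 1, 5 without CpG replicate 3 or untreated replicate 2, 11 without CpG replicate 2, and 12 and 17 without untreated replicates 1 and 4). The 5 called arm pairs became 1 with normexp, 3 with the median over spots, 0 within row 1 (3 at an unadjusted p under 0.05) and 4 to 6 without 1 array.

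The 4 intronic miRNAs became 2 with median scaling, the percentile over all miRNAs, normexp, cyclic loess or without both arrays numbered 4. They became 0 with the median over spots, with no filter, within row 1 or without CpG replicates 2 and 4 (4, 19, 2 and 8 at an unadjusted limma p under 0.05), 1 within row 2, 8 with the higher floor and 1 to 8 without 1 array. The count was also 4, but in other directions, without scaling and in the authors' deposited table (4 higher, 0 lower each). With control features it was 4 as well (3 higher, 1 lower). The metabolic list, with 0 called, had 4 without scaling and in the authors' deposited table, 3 with the higher floor or the trended fit, 2 with control features or within row 2, 1 with the percentile over all miRNAs, with detection everywhere or with the row block, and 0 to 5 without 1 array. Of the 10 nearest patterns 5 were kept with group means removed and 3 without scaling. The cause was not tested.

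By their labels, same-numbered arrays share a name apart from the word CpG, and they lie side by side on the slide. They deviated together with r of 0.28, -0.26, 0.25 and 0.096, and 2 of 8 arrays correlated best with their own number. With so few arrays these values cannot exclude pairing. The main fit left the arrays unpaired, and the replicate block took the numbers as pairs. The replicate block gave 38 called miRNAs (16 higher, 22 lower), 6 arm pairs, 4 intronic and 3 metabolic miRNAs. It could not change the members' differences of -0.77 and -0.50, because each number has 1 array in each group.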
